A study of Homo sapiens with 6 samples.

Results

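The 53845 regions of open chromatin described here were called in 3 of 3 Vector libraries of RH30 cells, out of 82553 regions called in at least 1 of those libraries and 105441 called in any of the 6 libraries of the series. A region was a run of overlapping ATAC-seq peaks on chromosomes 1 to 22 and X, and it was kept when each of the 3 lists had a peak in it. The study deleted MyoD (MYOD1) with CRISPR/Cas9 in RH30, an established fusion-positive, or alveolar, rhabdomyosarcoma (RMS) line that carries the PAX3::FOXO1 fusion gene. All libraries came from RH30 cells given Cas9, and the Vector libraries, labelled sgRNA scramble and numbered as biological replicates 1 to 3, also received a guide that targets no gene, so they describe the line with MyoD in place. The labels give RH30, while the study speaks of RH30 in some places and of RH30-SR in others for its ATAC-seq, and whether the cells also carried the IκBα super repressor, an inhibitor of NF-κB, could not be told from the labels. The sources do not say whether the Vector cells of these libraries were a clone or a pool, and the spread below is that between the 3 libraries.

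ATAC-seq uses the Tn5 transposase to cut and tag DNA that is not wrapped in nucleosomes, so that reads gather at promoters, enhancers and insulators in use. In muscle cells the MyoD family (MYOD1, MYF5, MYOG and MYF6) binds the E box, CANNTG, as dimers with E proteins such as TCF3 and TCF12, and MYOD1 is known for its preference for the form CAGCTG. AP-1 dimers of the JUN and FOS families, RUNX and TEAD factors bind many enhancers, CTCF marks insulators and loop anchors, and ETS, SP/KLF, NRF1 and NFY factors bind promoters. PAX3::FOXO1 joins the DNA-binding part of PAX3 to the activating part of FOXO1 and is the driver of alveolar RMS.

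Vector 1 listed 74041 peaks on the chromosomes used, Vector 2 listed 63068 and Vector 3 listed 64602. Vector 1 thus held more peaks, of which 11465 regions were called in that library alone, compared with 3163 for Vector 2 and 3785 for Vector 3. The fold enrichment of a peak is the height of its read pileup over the local background of the same library, and openness is given here as the percentile rank of that fold among all peaks of the library, averaged over the 3 libraries (100 is the most open). Regions in 3 of 3 libraries had a median rank of 58.7, against 21.4 for the 10295 regions called in 2 libraries and 13.2 for the 18413 called in 1. Across the shared regions, which are not independent replicates, the ranks had Spearman correlations of 0.899 between Vector 1 and 2, 0.905 between 1 and 3, and 0.933 between 2 and 3. The median SD of a region's rank over the 3 libraries was 5.36 points, and 1.42 points among the most open 10th of the regions. The regions had a median width of 952 bp and together covered 54.0 Mb, or 1.78% of these chromosomes.

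The sequences that carry the main features of this landscape are printed first, each 121 bases centred on a summit, from the forward strand of hg38. They were picked by rule after the ranks were known, as the most open regions in which the motif lay within 40 bp of the summit, outside UTRs and outside repeated sequence. Not every chromosome was used for this choice, and the order given with the sequences holds for the regions that were used. CAGCTG and the AP-1 word TGACTCA, on either strand, and the CTCF core are in capitals. For CAGCTG, the most open distal region lay in an intron of PTPRG, a receptor tyrosine phosphatase, at chr3:62109682-62109802, and the next by this rule in an intron of ELFN1 at chr7:1725549-1725669.
PTPRG intron: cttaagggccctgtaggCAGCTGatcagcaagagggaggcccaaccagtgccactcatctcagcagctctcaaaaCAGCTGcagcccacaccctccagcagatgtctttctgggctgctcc
ELFN1 intron: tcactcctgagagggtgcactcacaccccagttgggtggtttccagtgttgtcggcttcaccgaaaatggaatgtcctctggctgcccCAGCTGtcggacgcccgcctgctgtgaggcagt
For AP-1, the most open distal region lay in an intron of PRKAG2, which encodes a subunit of the AMP-activated kinase, at chr7:151727817-151727937, followed by one outside genes near SMYD2 at chr1:214261741-214261861.
PRKAG2 intron: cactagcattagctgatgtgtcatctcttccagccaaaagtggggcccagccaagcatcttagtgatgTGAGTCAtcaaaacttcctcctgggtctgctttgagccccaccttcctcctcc
near SMYD2: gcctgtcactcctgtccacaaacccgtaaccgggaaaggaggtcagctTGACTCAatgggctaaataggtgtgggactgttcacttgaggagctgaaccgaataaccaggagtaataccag
The most open distal region with both words lay in a coding exon of AAK1, 5051 bp from its nearest transcript start, at chr2:69514484-69514604, and the most open distal region with the CTCF core lay near PURB at chr7:44922196-44922316.
at AAK1: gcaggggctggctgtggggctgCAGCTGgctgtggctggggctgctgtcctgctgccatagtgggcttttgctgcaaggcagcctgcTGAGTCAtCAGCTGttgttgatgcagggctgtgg
near PURB: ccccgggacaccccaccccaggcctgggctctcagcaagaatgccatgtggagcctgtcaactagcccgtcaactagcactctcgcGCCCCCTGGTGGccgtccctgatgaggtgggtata
Their mean ranks were 99.8 for PTPRG, 99.6 for ELFN1, 99.9 for PRKAG2, 99.2 for SMYD2, 98.9 for AAK1 and 97.9 for PURB.

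For the promoters, the region at CCDC110 at chr4:185471349-185471469 is shown, with the SP/KLF word GGGCGG in capitals. It held 4 separate matches in these 121 bases.
CCDC110 promoter: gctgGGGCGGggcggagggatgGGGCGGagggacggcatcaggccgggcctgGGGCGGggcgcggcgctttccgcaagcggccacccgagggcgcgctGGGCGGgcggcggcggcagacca
For the muscle lineage, 2 regions with CAGCTG are shown, chosen after their values were seen: that at the 5′ end of DES (desmin, chr2:219418255-219418375) and one in an intron of PAX3 (chr2:222283766-222283886).
DES 5′ end: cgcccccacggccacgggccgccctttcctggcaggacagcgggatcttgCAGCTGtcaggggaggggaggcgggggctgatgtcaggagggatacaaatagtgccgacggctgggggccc
PAX3 intron: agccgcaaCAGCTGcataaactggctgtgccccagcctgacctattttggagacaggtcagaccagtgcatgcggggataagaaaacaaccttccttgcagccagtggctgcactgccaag
The rank of the DES region was 56.9, 51.2 and 50.5 in Vector 1, 2 and 3. The PAX3 intron was more open in every library, at 95.1, 96.9 and 96.6.

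Most of the open chromatin lay away from promoters, but the most open regions were promoters. Of the shared regions, 14177 (26.3%) had their summit within 1 kb of a transcript start of a protein-coding gene (promoter regions), 33699 (62.6%) had it over 2 kb from every annotated transcript start (distal regions), and 5969 (11.1%) were flanking. Over all the peaks of each library the promoter share was 21.1%, 23.8% and 23.6% in Vector 1, 2 and 3 (22.8% ± 1.49, SD, n = 3), and the distal share was 67.9%, 65.0% and 65.2%. By annotation, 50.3% of summits were in introns, 31.4% outside genes, 9.05% in 5′ UTRs, 5.31% in exons of non-coding transcripts, 2.34% in coding exons and 1.61% in 3′ UTRs.

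**Figure D1:**
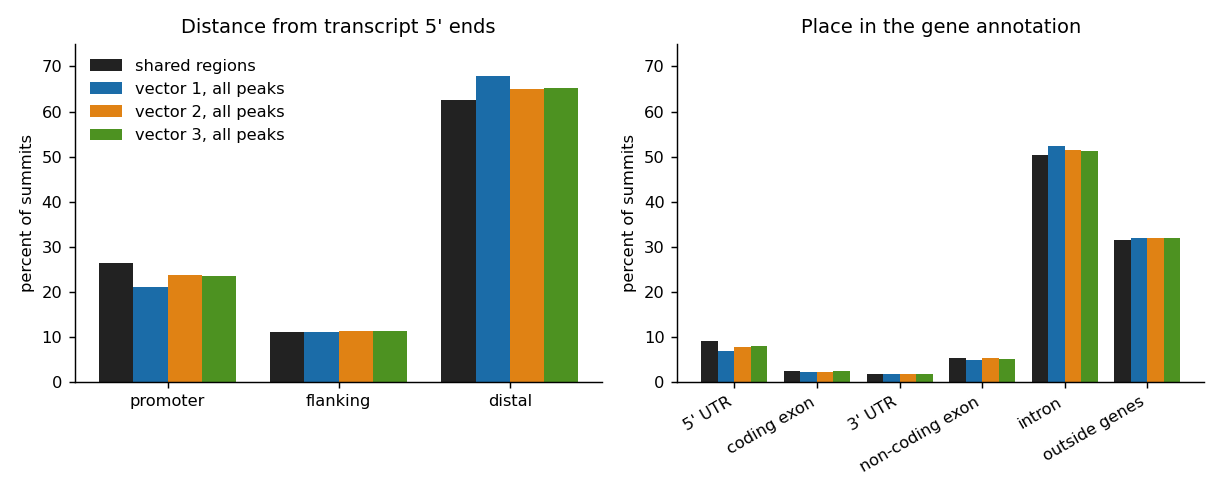
Percent of summits by distance from transcript starts (left) and by place in the annotation (right), for the 53845 shared regions (black) and for all peaks of Vector 1, 2 and 3 (colours). The distal share is above 60% in each set (62.6% of shared regions), and Vector 1 has the lowest promoter share, 21.1%.

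Promoter regions had a median rank of 78.5, 77.8 and 78.8 in the 3 libraries, and distal regions had 58.6, 50.7 and 51.8, so the classes stood apart in each library by more than the libraries differed. The median pileup, the height of the stacked reads, was 197, 144 and 184 at promoter summits and 53, 35 and 41 at distal summits. Promoters made up 66.4% of the most open 10th of the regions and 12.1% of the 2nd decile from the bottom, while the share of distal regions ran from 25.5% to 76.0% over the same 2 deciles. Distal regions lay a median of 23.1 kb from the nearest transcript start of a protein-coding gene. Where the nearest gene start was within 1 kb, the summit lay a median of 14 bp downstream of it, and 72.3% of the 9743 such summits were within 200 bp.

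CpG-rich promoters formed the upper end of the range. Of the promoter regions, 10345 (73.0%) were CpG-rich, by a GC share of at least 50% and an observed to expected CpG ratio of at least 0.6 around the summit. Their median rank was 84.4, and it was 84.3, 83.8 and 85.0 in Vector 1, 2 and 3. The 3832 CpG-poor promoter regions had a median rank of 53.4, close to the 52.8 of distal regions.

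**Figure D2:**
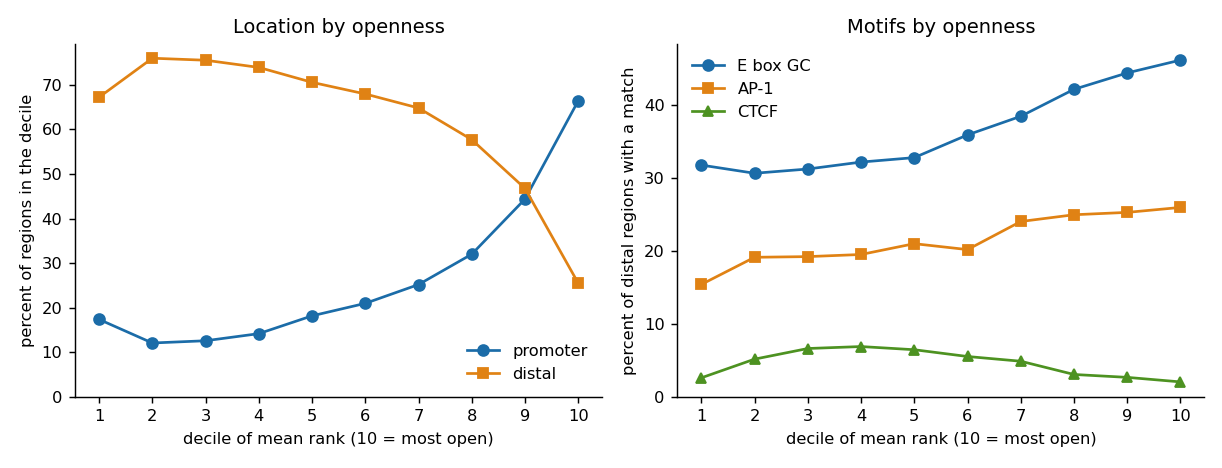
Share of promoter and distal regions (left) and share of distal regions with the CAGCTG E box (E box GC), the AP-1 word or the CTCF core within 100 bp of the summit (right), by decile of mean rank, where decile 10 is the most open. Promoters rise to 66.4% in decile 10. CAGCTG reaches 46.1% and AP-1 25.9% there, while CTCF is highest in decile 4, at 6.88%.

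CAGCTG was common at distal summits. It lay within 100 bp of 11909 of 33699 distal summits (35.3%), and the share was 34.9%, 35.4% and 35.0% at the summits of Vector 1, 2 and 3 (35.1% ± 0.27, SD, n = 3). Windows of the same length centred 2 kb to either side, free of any Vector peak, held it in 8.34% of cases, a ratio of 4.24, and 13.4% of windows at all protein-coding gene starts held it. Over each library's own distal peaks, shared or not, the share was 31.2%, 33.8% and 32.8%. Of 1782 words of 6 letters present in at least 2% of distal summit windows, CAGCTG had the highest ratio to the flanks, closely followed by CGCGGC at 4.23, which only 2.53% of windows held, and GAGTCA, which lies within the reverse strand of the AP-1 word, was 6th with a ratio of 3.22. At least 2 copies of CAGCTG were found in 7.81% of distal windows and in 0.544% of the flanks, and 1 window held 10.

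The other forms of the E box differed widely from this one, and they are named here by their 2 middle bases. The GG form (CAGGTG), which E proteins and the ZEB repressors bind, was as common at distal summits (19.1%) as in their flanks (18.9%). The GA form was at 21.1% against 13.6%, the AC form at 12.5% against 8.10%, and the TA form at 3.74% against 4.70%. For the GC form the ratio differed with the bases on either side. With A before it and C after it (ACAGCTGC), it was found at 8.71% of distal summits and 0.866% of flanks, a ratio of 10.1, and the spread of that share over the summits of the 3 libraries was 0.150 points (SD, n = 3). The next highest ratio, 8.87, belonged to the form with G before and C after. The lowest of the 10 distinct forms, 1.70, had T before and A after.

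AP-1 and CTCF had higher ratios to the flanks than CAGCTG. The AP-1 word was found at 20.8%, 20.7% and 20.9% of distal summits in Vector 1, 2 and 3, against 3.03% of flanks, a ratio of 6.88, and 2.62% of all gene starts. The CTCF core was at 4.91% of distal summits and 0.0682% of flanks, a ratio of 72.0. CRE, at 0.362% against 0.0775%, and NFI, in 12 distal regions, also had higher ratios than CAGCTG but were rare. RUNX (TGTGGTT) was at 10.5% against 3.62%, and TEAD (GGAATG) at 19.0% against 10.7%. The PAX3 composite word TGACTAATT was rare, in 176 distal regions (0.522%) against 0.235% of flanks. MEF2 was at 0.691% against 0.476%, NF-κB at 5.72% against 3.46%, SRF at 1.14% against 1.151% and FOX (TGTTTAC) at 2.62% against 2.67%. The homeodomain word TAATTA was less common at distal summits (3.63%) than in the flanks (6.66%). Flanks had a different base composition from summits, which a ratio of word shares does not correct, and every match was counted on both strands and is a match of letters only. The NF-κB, MEF2, SRF and CTCF words have variable letters.

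**Figure D3:**
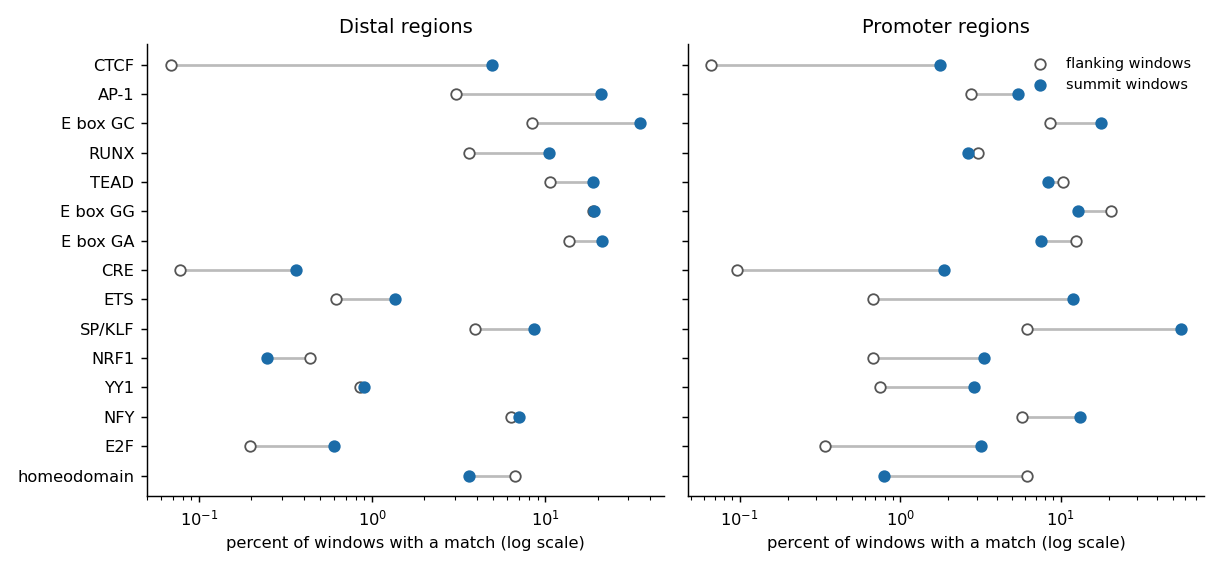
Percent of windows with a match, within 100 bp of summits (filled) and in windows of the same length 2 kb away (open), on a log scale, for distal (left) and promoter regions (right). E box GC is CAGCTG, E box GG is CAGGTG and E box GA is CAGATG. Among the motifs drawn, CTCF, AP-1, CRE and E box GC have the highest ratios to their flanks in distal regions (72.0, 6.88, 4.67 and 4.24), and CTCF, CRE and ETS in promoters (26.8, 19.6 and 17.7).

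Most distal regions with CAGCTG or AP-1 did not hold the other word. Both words were found in 2055 distal regions (6.10%), CAGCTG alone in 9854 (29.2%), AP-1 alone in 4981 (14.8%) and neither in 16809 (49.9%). AP-1 was at 17.3% of regions with CAGCTG and 22.9% of regions without it, and CTCF was at 2.17% and 6.41%. Regions with both words had the highest median rank, 68.9, 62.0 and 62.0 in the 3 libraries, against 61.5, 55.99 and 56.02 with CAGCTG and 55.3, 47.4 and 48.8 with neither word. Vector 1, whose ranks run over more peaks, ranked each of these sets above the other libraries. The order of these 3 sets was the same in every library. The median fold of all distal regions was 7.71, 7.46 and 7.43 in Vector 1, 2 and 3. Regions with AP-1 had median ranks of 64.6, 53.9 and 54.8, above those with CAGCTG in Vector 1 and below them in Vector 2 and 3. CTCF regions had a median rank of 49.8 and were narrow, with a median width of 693 bp against 880 bp for all distal regions. The CAGCTG share rose from 30.6% in decile 2 to 46.1% in the most open decile, and the AP-1 share from 15.4% in the lowest decile to 25.9% in the highest.

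**Figure D4:**
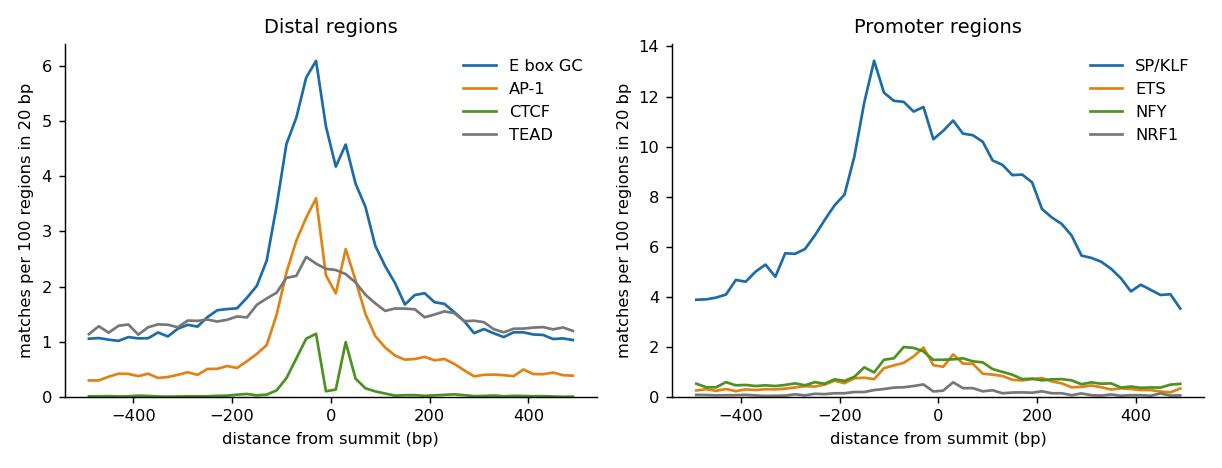
Matches per 100 regions in bins of 20 bp, by distance from the summit, in distal (left) and promoter regions (right). E box GC is CAGCTG. In distal regions CAGCTG peaks at 6.10 matches per 100 regions 30 bp before the summit, with 1.05 in the outermost bin, and CTCF drops to 0.101 in the bin just before the summit between 2 peaks.

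Around distal summits, CAGCTG was found 6.10 times per 100 regions in the bin centred 30 bp before the summit and 1.05 times in the bin at −490 bp. The AP-1 word was found 1213 times in the first of these bins and 100 times in the second, over all distal regions. CTCF matches lay to either side of the summit, with 1.14 per 100 regions at −30 bp, 0.101 at −10 bp, 0.131 at 10 bp and 0.991 at 30 bp.

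Promoter regions held a different set of words. GGGCGG, the SP/KLF word, was within 100 bp of 56.3% of promoter summits, against 6.20% of flanks and 46.9% of all protein-coding gene starts. The ETS word CCGGAAG was at 11.9% against 0.675% of flanks, CRE (TGACGTCA) at 1.88% against 0.0958%, and E2F (TTGGCGC) at 3.20% against 0.339%. At all protein-coding gene starts, open or not, these 3 words were at 10.2%, 1.87% and 2.72%. NRF1 (GCGCATGC) was at 3.35% against 0.675%, YY1 (AAGATGGC) at 2.87% against 0.748% and NFY (GCCAAT) at 13.2% against 5.72%, and at all gene starts they were at 2.97%, 3.01% and 12.2%. The shares of these 6 words at promoter summits thus differed far less from those at all gene starts than from those in the flanks. CAGCTG was at 17.9% of promoter summits against 8.54% of flanks, a ratio of 2.10, and AP-1 at 5.44% against 2.76%. The 6-letter words with the highest ratios at promoters consisted of C and G only, led by CGCGCG with a ratio of 41.4.

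By gene, 11961 of 19970 protein-coding genes (59.9%) had a shared region within 1 kb of the 5′ end of the gene, called an open 5′ end below. In single libraries the count was 12320, 12153 and 12299, so the libraries differed little here. Of lncRNA genes 26.9% had one, and 16.4% did among lncRNA genes over 2 kb from the start of a protein-coding gene. The region at an open protein-coding 5′ end had a median rank of 83.9, 83.2 and 84.1 in Vector 1, 2 and 3.

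The muscle markers had a higher share of open 5′ ends than the marker lists of other tissues, but at moderate ranks. Of 28 skeletal muscle markers 20 (71.4%) had an open 5′ end, beside the 59.9% of all protein-coding genes. None of 10 blood markers, 8 epithelial markers or 8 hepatocyte markers had one, including PTPRC, CDH1, EPCAM and ALB. Of the neuronal markers 3 of 8 did (TUBB3, SNAP25 and SLC17A7), of the endothelial 2 of 8 (CLDN5 and ESAM), of the fibroblast 5 of 10 (COL1A1, COL1A2, PDGFRB, TWIST1 and FN1, with COL1A1 at a mean rank of 97.2) and of the pluripotent 1 of 8 (SOX2). The open muscle 5′ ends had a median rank of 67.4, 62.8 and 58.6 in the 3 libraries, below the median of all open 5′ ends in each, and none was in the most open 10th of the regions. A list of 14 housekeeping genes had 13 open, with a median rank of 77.2. Among the open muscle 5′ ends, the regions at DES, MYOD1, MYF5, CHRNB1 and CDH15 were CpG-rich and the others CpG-poor. All CpG-poor promoter regions had a median rank of 57.3, 51.8 and 53.1 in Vector 1, 2 and 3, below the open muscle 5′ ends. Neither these lists nor the gene families below were matched for CpG content.

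By rank, NEB, which encodes the thin-filament ruler nebulin, had the most open 5′ end among the muscle markers, at 96.9, 85.8 and 90.8. CHRNB1, a subunit of the acetylcholine receptor, followed at 81.5, 82.2 and 80.0. RYR1, the calcium release channel, was at 76.9, 79.9 and 76.7, ACTA1, skeletal alpha-actin, at 77.0, 74.8 and 77.0, and the receptor subunit CHRND at 77.5, 73.9 and 72.2, so that these 3 overlapped. The myoblast fusion genes MYMK and MYMX were lower in rank in every library, MYMK at 23.6, 32.8 and 26.9 and MYMX at 23.6, 25.3 and 25.4. Pileup gave another order. It was 168, 91 and 107 at NEB and 129, 128 and 155 at MYMK. At MYMX it was 198, 161 and 202, and at CDH15 it was 594, 439 and 562. No open 5′ end was found at the developmental myosins MYH3 and MYH8, nor at TNNC1, MYL4, CKM (muscle creatine kinase), TTN (titin), SGCA or CACNA1S. MYL4 nonetheless had a region at −2406 bp from its 5′ end with ranks of 86.2, 93.3 and 89.6, with CAGCTG near its summit, and TTN had one in an intron, within 1 kb of another transcript start, at 71.6, 81.6 and 79.0.

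**Figure D5:**
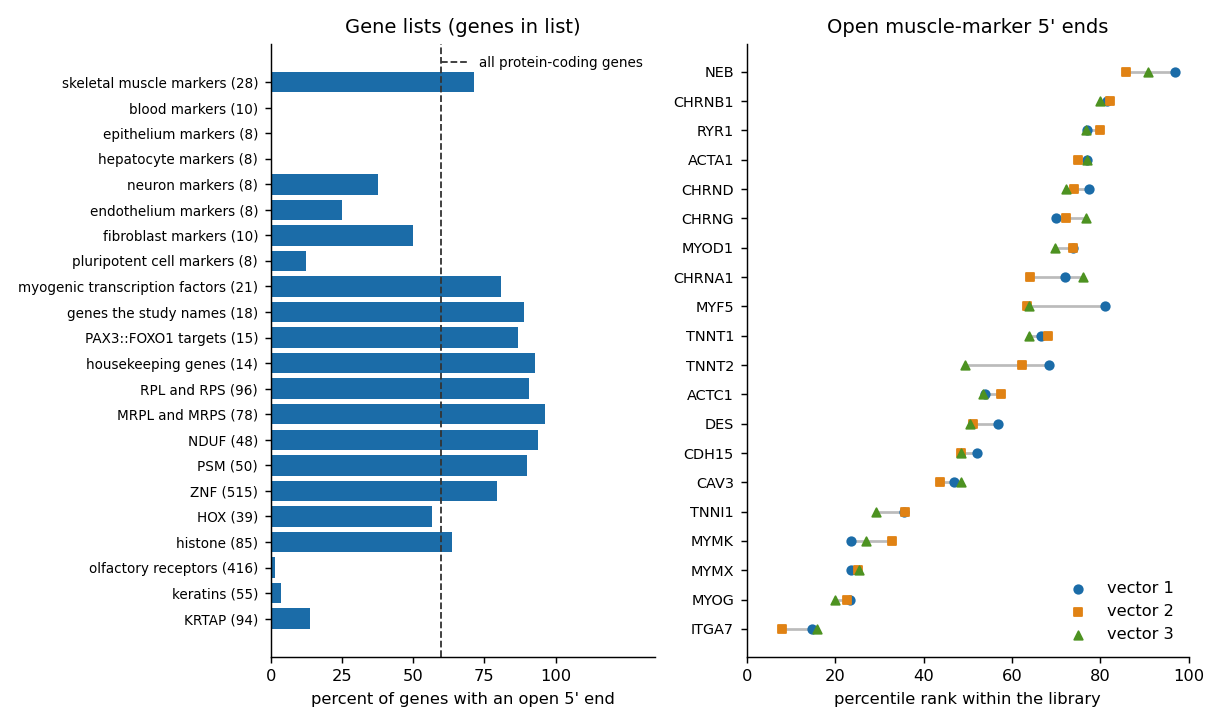
Percent of genes in each list with an open 5′ end (left, number of genes in brackets, dashed line at 59.9% of all protein-coding genes), and the percentile rank of the region at each open skeletal muscle 5′ end in Vector 1, 2 and 3 (right, lines join the lowest and highest library). Blood, epithelium and hepatocyte markers are at 0, and the muscle 5′ ends range from ITGA7, with a mean rank of 12.9, to NEB, at 91.2.

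Across the 28 muscle markers there were 64 shared regions in the gene bodies and the 5 kb upstream. CAGCTG was within 100 bp of the summit in 21 of them (32.8%), against 30.4% of all shared regions, AP-1 in 7 (10.9%, against 16.3%), and MEF2 in none (against 0.591%).

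Of the myogenic transcription factors 17 of 21 (81.0%) had an open 5′ end, beside 59.9% of all protein-coding genes. MYOD1 was at 73.9, 73.7 and 69.7 in Vector 1, 2 and 3, with CAGCTG within 100 bp of the summit, and MYF5 at 81.1, 63.3 and 63.9. MYOG, which drives terminal differentiation, was far lower in rank at its 5′ end, at 23.5, 22.7 and 20.04. The 3 values did not overlap those of MYOD1 or MYF5. Pileup, which is not divided by the local background, was 232, 215 and 230 at MYOG. It was higher than the 86, 47 and 50 at MYF5 and lower than the 545, 400 and 506 at MYOD1. A second region at −3805 bp from the MYOG 5′ end, within 1 kb of another transcript start, had ranks of 53.2, 51.7 and 55.4. MYF6, PAX7, EYA1 and TCF4 had no open 5′ end. PAX3 was at 86.7, 80.6 and 82.7, MEF2B at 94.3, 90.5 and 94.9, and MEF2C at 39.1, 27.8 and 39.8. The E protein TCF3 was at 84.8, 79.4 and 79.1 and TCF12 at 47.3, 42.7 and 50.7. The inhibitors ID1, ID2 and ID3, which bind E proteins, were all open, with mean ranks of 40.6, 65.8 and 23.4.

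Genes that the study discusses were mostly open, 16 of 18 (88.9%), beside 59.9% of all protein-coding genes. On the list of PAX3::FOXO1 targets, 13 of 15 (86.7%) were open, and that list also holds the partner genes PAX3 and FOXO1, both open. CYLD, a deubiquitinase, was at 96.7, 98.3 and 95.0, above all the muscle markers in mean rank. The DNA methyltransferases had mean ranks of 64.9 for DNMT1, 66.2 for DNMT3A and 82.1 for DNMT3B, and RELA, the NF-κB subunit, was at 83.0. MYF6 and MYH1 were the 2 without an open 5′ end. Of the fusion targets, the growth factor receptor gene FGFR4 was at 82.7, 85.6 and 86.7, OLIG2 at 93.2, 91.1 and 84.9, and ALK at 86.7, 86.8 and 84.9. MYCN was at 40.9, 48.6 and 48.2 and NOS1 at 14.1, 32.9 and 22.6, while TFAP2B and CDH3 had no open 5′ end. ALK also held 31 regions over its body and upstream 5 kb, and IGF1R 21. These counts are not divided by gene length, and long genes held the most regions. Among all protein-coding genes, 63 had at least 20.

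Several large families had higher shares and ranks than the muscle list. Of all protein-coding genes, 59.9% had an open 5′ end. Mitochondrial ribosomal genes had 75 of 78 open (96.2%), NDUF genes of respiratory complex I 45 of 48, cytosolic ribosomal genes 87 of 96, proteasome genes 45 of 50 and ZNF genes 409 of 515. The median ranks of the open ones were 92.0, 87.7, 89.5, 90.8 and 91.2 in that order. HOX genes had 22 of 39 open at a median of 51.9 and histone genes 54 of 85 at 55.1. Olfactory receptor genes had 6 of 416 (1.44%), keratin genes 2 of 55 and keratin-associated protein genes 13 of 94. Histone, ribosomal and keratin-associated genes lie close together or have near-identical copies, so a region can serve several of them and reads can be shared.

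Repeated sequence led the most open regions, so that the top of the list needs care. A summit was called repeated when at least 7 of 13 words of 31 bases across it occurred more than once in the genome. Such summits made up 3.54% of all shared regions, but 35 of the top 100 regions by mean rank, 9 of the 15 most open distal regions and 4 of the 15 most open promoters. Reads from several copies can pile up at one of them, and the part of this in the ranks was not tested.

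Among the 15 most open promoters, the folds of the leading region were 28.5, 29.3 and 27.9, at a transcript start of ENSG00000270249, a gene model without a symbol, and its summit was repeated, as were those of NOMO3 and NOMO1. Others were CCDC110 at 21.4, 24.3 and 22.4, the RNA polymerase II subunit gene POLR2G at 22.6, 22.6 and 21.1, the methionine sulfoxide reductase gene MSRB2 at 20.4, 22.3 and 20.9, and MAOA, which encodes monoamine oxidase A, at 20.2, 22.1 and 20.2. The ribosomal protein gene RPS26 was at 20.6, 22.1 and 19.9. TXNL1, PPFIA3, ACACB (acetyl-CoA carboxylase beta), USP16 (a histone H2A deubiquitinase), THG1L and SRRM3 followed, with folds of 19.4 to 21.98 over the 3 libraries. Of the 15, 14 were CpG-rich, and from NOMO3 on, the folds of neighbours in this order overlapped between the libraries.

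The most open distal region was a repeated one on chromosome 5 near BDP1, with folds of 30.6, 30.9 and 30.3, and it had the highest fold of all peaks in each library. Regions nearest SERF1A, EPN2, NSUN5, NCF1, OR11H1, SERF1B, FOXD4L5 and GOLGA8N were repeated too. The 6 others were nearest SEMA4B (20.3, 20.9 and 20.1), TLR5 (19.3, 20.2 and 19.1), PDE4A (18.6, 20.8 and 19.0), PROS1 (19.7, 19.3 and 19.2), PRKAG2 (18.9, 19.5 and 18.8) and KLF4 (18.7, 19.2 and 19.7). Without repeated summits the next 9 distal regions lay nearest PTPRG, KPNA6, ZNF609, TLR10, PTPRM, RGMA, ELFN1, LRRC28 and TTC39C. Of the 15 most open distal regions without repeated summits, 6 held CAGCTG within 100 bp of the summit, all among these 9, beside 35.3% of all distal regions. The nearest gene is a label and no target was measured. The PROS1 region lay 415717 bp and the KLF4 region 294057 bp from the nearest transcript start. Around its summit the PROS1 region had a GC share of 26.5%, against a median of 47.3% for distal regions. Whether the rule for repeated summits missed copies there was not tested.

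Ranking by −log10 p, a measure that grows with the number of reads, gave a different top list, which shared 2 of the 30 regions with the one above. Of its 15 leading promoters 12 lay on chromosome 12 between 56 and 60 Mb, at CDK4, OS9, METTL1, TSPAN31 and their neighbours, genes named here after their values were seen. At the promoter of CDK4, the cyclin-dependent kinase that drives entry into S phase, the pileup was 7065, 6117 and 7145, and the local background was 83.3, 103 and 105 times the median of all shared regions. By fold, which divides by that background, the same region stood at 10.95, 12.1 and 11.1, with a mean rank of 80.8. From 57000001 to 58000000 bp, the median background was between 7.20 and 8.73 times that of all regions in each library and 500-kb window. These windows held 54 and 49 regions. From 56500001 to 57000000 bp, with 17 regions, it was 1.11, 1.12 and 1.22 times, but it was raised again from 56000001 to 56500000 bp, at 3.70, 3.66 and 3.87 times, and from 58000001 to 58500000 bp, at 2.87, 2.95 and 2.71 times. RH30 is known to carry extra copies of a part of chromosome 12 that includes CDK4. Copy number was not measured, and its part in this background was not tested.

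The density of regions differed by chromosome. It was highest on chromosome 19, with 38.0 regions per Mb, and chromosome 17, with 34.4, and lowest on chromosome X (9.62), 18 (10.2) and 13 (10.7). Per protein-coding gene the order differed, with 1.51 regions on chromosome 19 and 3.77 on chromosome 13.

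Long genes held the most regions. RUNX1, a transcription factor gene whose record with 5 kb upstream spans 1222 kb, had 50 shared regions, and Vector 1, 2 and 3 listed 78, 60 and 61 peaks there. CAGCTG was at 15 of the 50 summits and AP-1 at 18, and the 5′ end of the gene record was not open. RAD51B, a recombination gene, had 47 regions, NAV2 46, GSE1 44, SHANK2 39, FRMD4A 36, SORCS2 36, AUTS2 34, PALM2AKAP2 34 and AOPEP 33. GSE1 had CAGCTG at 20 and AP-1 at 4 of its regions, while RUNX1 had slightly more of AP-1 than of CAGCTG. Among all protein-coding genes 504 had at least 10 regions and 4473 (22.4%) had none.

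Per length, the densest of the 2004 genes with at least 5 regions were short genes, of 17.2 to 27.1 kb with 5 kb upstream. The gene model ENSG00000263620 had 29.1 regions per 100 kb, the mitochondrial thioredoxin gene TXN2 25.5, TSC22D4 23.95, MADCAM1 23.6 and CCDC88B 22.4. MDFI, which encodes an inhibitor that binds myogenic bHLH factors, had 22.4, with 5 regions of which 2 held CAGCTG, and Vector 1, 2 and 3 each listed 5 peaks there. WDR81, FHOD1, ABHD8 and RHBDF1 had 21.5 to 22.2. The regions of these genes were mostly of low rank, with medians from 9.26 at RHBDF1 to 47.2 at ABHD8. Rank is that of fold, which divides by the local background. Of these genes, MADCAM1, CCDC88B and FHOD1 lay in the most crowded 2-Mb windows of the genome. In their windows that background was 2.63, 2.71 and 1.73 times that of all shared regions, as a mean over the libraries. The other genes lay outside the most crowded windows. The part of the background in the ranks of these genes was not tested.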

How the data were processed

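Of 6 ATAC-seq libraries from RH30, the 3 Vector libraries were analysed, and the other lists served only to count the regions of the series. The authors used Rsubread for alignment to hg38, called peaks with MACS2 and deposited 1 peak list per library, without pooling. The labels also name bcl2fastq 2.20 and FastQC. Fold enrichment, as deposited, is the ratio between summit pileup and local background in a library. The deposited −log10 p and −log10 q values are those of the summit. The study's methods state that regions on the DAC exclusion list were left out, and that list was not used here to check the files. The lists hold no read totals, so depth is unknown; the smallest local background was 3.41, 2.22 and 2.74 reads in Vector 1, 2 and 3.

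Overlapping peaks (at least 1 base) were merged, and regions called in 3 of 3 libraries were kept. A region's summit was that of its highest-ranked peak. Pileup and background were recovered from fold and −log10 p by the Poisson formula of MACS2, for 100% of peaks. Genes came from GENCODE version 44 and sequences from hg38 (pysam 0.24.0, samtools 1.23.1, scipy 1.17.1). The 32 motifs were searched on both strands. Merging (against bedtools 2.31.1), recovery, motif search and repeat counts were tested on simulated data. No test was made, since there is 1 group of 3 libraries.

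Named genes are the 15 most open promoter and distal regions, the 10 genes with the most regions and the 10 densest, and the members of fixed lists, of which some are not reported here. The regions, lists and motifs were chosen with earlier results of these data known. Alternatives tried were a stricter −log10 q (5 or more), the same number of peaks per library, 50% cover, 2 of 3 libraries, each library left out, merging over 150 bp, other 5′ ends, other summits, a narrower motif window, ranks of −log10 p and, added after seeing the data, no repeated sequence.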

Additional observations from a re-analysis of the deposited data

How the results depend on the processing

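Of 113 values recomputed under 16 settings, 65 stayed within a set limit and 48 did not. The limit was 1.5 times for counts and, for the promoter and distal shares, the SD over each library's own peaks. For motif and CpG-rich shares it was the SD over each library's summits of the shared regions, which also set the class. That SD was 0.278 points for CAGCTG, 0.105 for AP-1 and 0.00507 for CTCF. Over each library's own distal peaks the SD was wider, at 1.35, 0.563 and 0.270 points. Some values past the limit lie within this wider SD. The counts of regions and of genes with an open 5′ end, and the genes with the most regions, stayed within 1.5 times in every setting run. With a −log10 q of at least 5 the distal shares were 36.3% for CAGCTG, 21.3% for AP-1 and 5.15% for CTCF, and 74.1% of promoters were CpG-rich. With equal numbers of peaks AP-1 was 21.4%, CTCF 5.04% and CpG-rich 73.6%. With 50% cover the promoter share was 27.8%, CAGCTG 36.1%, CTCF 4.92% and CpG-rich 74.5%. With regions in at least 2 of 3 libraries the promoter share was 23.4%, the distal share 65.6%, CAGCTG 33.5%, AP-1 20.2%, CTCF 5.12% and CpG-rich 69.9%. Without single libraries CAGCTG was 33.9% to 35.1%, AP-1 20.6% to 20.7%, CTCF 4.91% to 5.07% and CpG-rich 71.2% to 72.4%. With gene records only as 5′ ends the promoter share was 18.1% and the distal share 79.9%, and with promoters within 2 kb the promoter share was 30.04%. With windows of 50 bp to each side CAGCTG was 20.9% (5.00 times its flanks), AP-1 11.9% and CTCF 2.73%, as shorter windows hold fewer words. With the summits of Vector 1 CAGCTG was 34.9%, AP-1 20.8%, CTCF 4.93% and CpG-rich 72.6%. With those of Vector 2 AP-1 was 20.7%, CTCF 4.93% and CpG-rich 72.7%. With those of Vector 3 CAGCTG was 35.0% and CTCF 4.92%. Without repeated sequence CAGCTG was 35.8%, AP-1 21.1%, CTCF 4.85% and CpG-rich 73.1%, and 17 of the 30 most open regions stayed. With ranks by −log10 p, 2 stayed. The ratio of CAGCTG to its flanks was between 4.08 and 5.00 in all settings run.

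No paired analysis was possible because the results come from 1 group of 3 libraries. The lists hold only called peaks and no reads, so a gene without a region is one without a called peak in 3 of 3 libraries, and a rank compares regions within a library. The depth of each library is unknown, and no interval for counting error was given.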

Other observations

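The widest shared regions differed from the most open ones. Of the 10 widest, between 3718 and 4986 bp, 7 had repeated summits. They included 2 outside genes on chromosome 5 nearest EMB, of 4986 and 4036 bp, and 1 on chromosome 12 nearest ALG10B, 1078861 bp from its nearest transcript start. The 3 without repeated summits lay at MXI1, with a mean rank of 46.9 ± 4.79 (SD, n = 3), near EEF1A1, with 1.49 ± 1.90, and at ANP32A, with 39.3 ± 6.27. The region at MARCHF9 on chromosome 12 had the highest local background of all shared regions, 98.8 times the median, and a fold of 1.91, 1.54 and 2.03 in Vector 1, 2 and 3. These genes were chosen after their values were seen.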
